A study of Mus musculus with 2 samples.

Results

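The genes described here make, break down, bind and read retinoic acid, the active acid form of vitamin A. They were taken from a fixed list of 10 symbols: Rdh10, Aldh1a1, Aldh1a2 and Aldh1a3 for synthesis, Cyp26a1 and Cyp26b1 for breakdown, Crabp1 for binding, and Rara, Rarb and Rxra for the receptors. All 10 had a row in the deposited gene tables, among 42462 genes that could be named. The tables came from total RNA sequencing of kidneys of mice of strain B6NCrl at postnatal day 0. Each of the 2 libraries held both kidneys of 1 pup, and the labels give both pups to the same pregnant mother. The labels name no mutation and no treatment, and sex was not collected. With 1 group of 2 littermates there was nothing to test between conditions, so no p-value is given and every error is the spread between these pups.

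Retinol is oxidised to retinal by alcohol and short-chain dehydrogenases, of which Rdh10 is the main one in embryos, and retinal is oxidised to retinoic acid by the Aldh1a enzymes. Retinoic acid then binds nuclear receptors of the RAR family, which sit on DNA as pairs with an RXR partner and change transcription of nearby genes, while Cyp26 enzymes oxidise retinoic acid and so limit where it acts. In the developing kidney, retinoic acid made by Aldh1a2 in the stroma is known to support branching of the ureteric bud and its expression of Ret, the receptor for the growth factor GDNF.

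The libraries held 41584961 expected read counts in pup 1 and 48823952 in pup 2. A floor of 3 counts, which covers counting error only, was therefore 0.0721 CPM (counts scaled to the library total) in pup 1 and 0.0614 in pup 2. The kidney label fitted its markers: 15 of 15 kidney epithelium and nephron genes reached 1 TPM (a level corrected for transcript length and scaled to the library) in both pups, with Aqp2, the water channel of the collecting duct, at 547 TPM in pup 1 and 638 TPM in pup 2. All 7 ureteric tip markers and all 9 stroma markers also reached 1 TPM, as did 5 of 6 mesothelium and capsule markers. Of the markers of other tissues, 2 of 11 adrenal, 1 of 8 gonad and 7 of 8 liver markers did, with Afp at 105 TPM and 95.3 TPM. Over all protein-coding genes 61.5% reached 1 TPM in both pups, so reaching this level is not particular to kidney genes. In whole kidneys, fewer cells of a type and less RNA per cell cannot be told apart.

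The DNA element that RAR and RXR pairs bind is a direct repeat, and Rarb and Cyp26a1 are textbook targets carrying such elements near their starts. Promoter windows of 300 bases from RefSeq (GRCm38.p6, 250 bases before to 50 after each start) existed for 8 of the 10 genes, in 13 windows. Aldh1a3 and Rdh10 had none and were not searched. Both strands of 32851 windows were searched for the unit AGGTCA or AGTTCA or GGGTCA or GGTTCA followed by another of these units after 1, 2 or 5 bases. Such a repeat was found in 0.588% of all windows, and the form with 5 bases between the units in 0.0974%. Among the 10 genes 2 windows held a match, those of Rarb and Cyp26a1, and both had the form with 5 bases between. These elements are shown 5′ to 3′ as read on the strand that matches, to let the repeats be compared:
Rarb: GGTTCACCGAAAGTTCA
Cyp26a1: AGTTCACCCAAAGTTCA

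The elements were identical at 15 of 17 positions. Counted from 1 at the 5′ end with Rarb as the reference, the differences were G1A and G9C, so the second unit was the same in both. In Rarb the element lay on the gene's own strand at positions -53 to -37 relative to the RefSeq start, and 14 to 30 bases after the first base of the transcript Rarb-201 in GENCODE M21. In Cyp26a1 it lay on the opposite strand at positions -32 to -16. The surrounding sequence is shown on the gene's own strand, with the element in capitals, for Rarb as the 30 bases at chr14:16575506-16575535 (minus strand) and for Cyp26a1 as the 240 bases before its first exon at chr19:37697558-37697797 (plus strand):
Rarb: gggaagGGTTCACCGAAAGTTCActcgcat
Cyp26a1: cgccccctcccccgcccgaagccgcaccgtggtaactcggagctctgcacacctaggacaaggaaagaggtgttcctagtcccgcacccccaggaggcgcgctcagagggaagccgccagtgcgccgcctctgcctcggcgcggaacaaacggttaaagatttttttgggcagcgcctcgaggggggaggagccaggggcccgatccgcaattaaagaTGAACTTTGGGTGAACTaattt

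A match describes the letters and says nothing of binding, and no match says only that the letters were not in the window. Together with the other genes of the pathway described below, 85 genes were looked up and 64 had a window. Among those other genes 1 had a match, Bco1, a carotene-cleaving enzyme, with 1 base between the units. With AGGTCA as the only unit allowed, no window of the 10 genes matched. The genes with the shared element stood far apart in level: Rarb was listed at 24.4 TPM in pup 1 and 21.7 TPM in pup 2, and Cyp26a1 at 1.45 TPM and 1.77 TPM.

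Every one of the 10 genes reached 1 TPM in both pups, where 34.4% of all named genes and 61.5% of protein-coding genes did. The 10 were chosen with earlier results of these data known, so setting them beside these shares is no test. Their levels ran from Cyp26a1 up to Aldh1a2, with 5 above and 5 below the median of the 14597 detected genes, which was 16.3 TPM in pup 1 and 15.5 TPM in pup 2. The median of the 10 was 18.2 TPM in pup 1 and 15.9 TPM in pup 2.

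**Figure D1:**
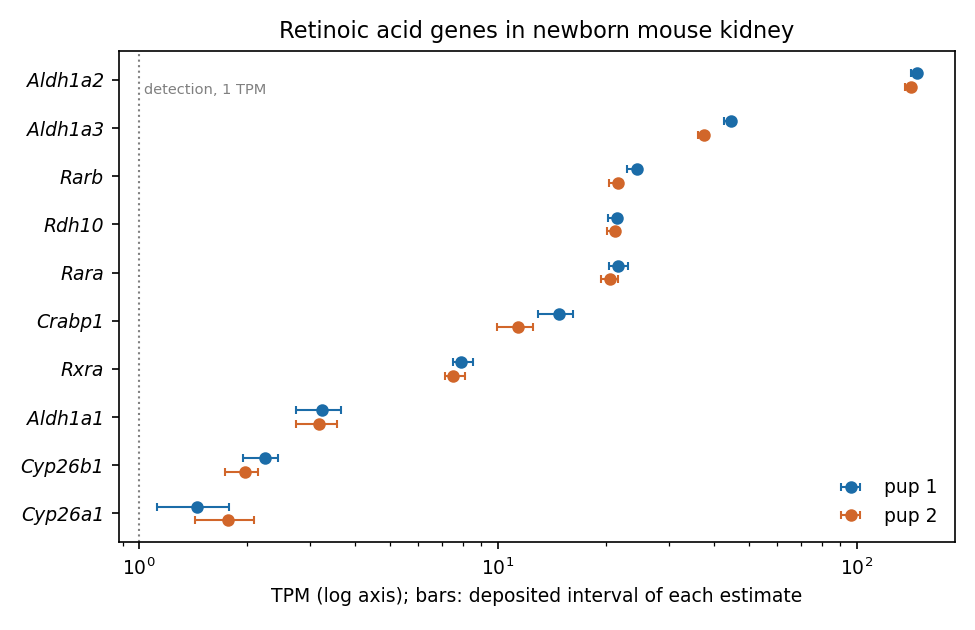
Level of each of the 10 genes in TPM (log axis) in pup 1 and pup 2, with bars for the deposited interval of each estimate and a dotted line at 1 TPM. Aldh1a2 stands at 147 and 141 TPM, and the 2 Cyp26 genes lie at the low end between 1.45 and 2.24 TPM.

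Among the 4 synthesis genes listed, Aldh1a2, the main retinal dehydrogenase of embryonic mesoderm, had the highest level. Its level was 147 TPM in pup 1 and 141 TPM in pup 2, a mean of 144.1 ± 3.97 TPM (SD, n = 2), higher than that of 92.5% of detected genes. The gene (ENSMUSG00000013584.5) lies at chr9:71215789-71296243 on the plus strand of mm10, and 9436 and 11165 reads were counted to it. Aldh1a3, a second enzyme of this family (ENSMUSG00000015134.10, chr7:66390890-66427517, minus strand), stood at 44.6 TPM in pup 1 and 37.5 TPM in pup 2, a mean of 41.0 ± 5.0 TPM. Aldh1a1, the third (ENSMUSG00000053279.6, chr19:20492715-20643465, plus strand), was at 3.23 TPM and 3.18 TPM, with 187 and 227 counts. Aldh1a2 thus made up 75.5% of the summed TPM of the 3 enzymes in pup 1 and 77.6% in pup 2, Aldh1a3 22.9% and 20.6%, and Aldh1a1 1.66% and 1.75%.

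Between genes of 1 pup, a difference was called beyond the spread when it had the same sign in both pups and its mean was larger than the sum of both genes' spread limits. The spread limit is the 95th percentile of the absolute difference between the pups in log2(TPM + 1), taken over all named genes of like level. It was 0.53 for genes of 1 to 10 TPM, 0.32 for 10 to 100 TPM and 0.26 from 100 TPM. Aldh1a2 exceeded Aldh1a3 by 1.79 ± 0.13 on this scale (SD, n = 2), against a limit of 0.59, which was a TPM ratio of 3.30 in pup 1 and 3.77 in pup 2. Aldh1a1 was below Aldh1a2 (-5.11 ± 0.03, limit 0.79) and below Aldh1a3 (-3.32 ± 0.16, limit 0.85). Aldh1a1 did not separate from its close paralog Aldh1a7, which was listed at 3.24 TPM in pup 1 and 3.11 TPM in pup 2, a mean log2 difference of 0.01 against a limit of 1.06. These paralogs shared 7.53% of the 50-base stretches of the Aldh1a1 transcript, so their split rests on the remaining sequence. The retinal dehydrogenase Aldh8a1 was at 3.98 TPM and 3.75 TPM.

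Rdh10, the short-chain dehydrogenase that makes retinal from retinol (ENSMUSG00000025921.7, chr1:16105774-16133734, plus strand), was at 21.5 TPM in pup 1 and 21.2 TPM in pup 2, a mean of 21.4 ± 0.23 TPM. It stood below Aldh1a2, the next step, at a TPM ratio of 0.147 and 0.150, and above Aldh1a1 at 6.67 in each pup, and both differences were beyond the spread. Dhrs3, which reduces retinal back to retinol, was at 190 TPM in pup 1 and 157 TPM in pup 2. Rdh10 was therefore 0.113 and 0.135 times as high as Dhrs3, a log2 difference of -2.96 ± 0.18 against a limit of 0.59.

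Of the breakdown enzymes, Cyp26b1 (ENSMUSG00000063415.8, chr6:84571414-84593908, minus strand) was at 2.24 TPM in pup 1 and 1.97 TPM in pup 2, from 305 and 331 counts. Cyp26a1 (ENSMUSG00000024987.5, chr19:37697798-37701536, plus strand) was at 1.45 TPM and 1.77 TPM, from 72 and 108 counts. Their deposited intervals overlapped within pup 2, 1.73 to 2.15 TPM against 1.43 to 2.09 TPM, and did not within pup 1, 1.95 to 2.44 TPM against 1.12 to 1.77 TPM. The mean log2 difference of 0.25 ± 0.21 was within the limit of 1.06. Both ranked low in the tissue, with 8.97% of detected genes below Cyp26b1 and 4.99% below Cyp26a1. The third enzyme of the family, Cyp26c1, was listed at 0.02 TPM in each pup.

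The 3 Aldh1a enzymes thus exceeded the 2 Cyp26 enzymes of the list in RNA level in both pups. The 3 Aldh1a enzymes summed to 195 TPM in pup 1 and 182 TPM in pup 2, and Cyp26a1 with Cyp26b1 to 3.69 TPM and 3.74 TPM, a ratio of 52.8 and 48.7. The pair fixed for this step, Aldh1a2 over Cyp26b1, gave TPM ratios of 65.6 and 71.7, a log2 difference of 5.55 ± 0.05 against a limit of 0.79. Aldh1a1 alone did not separate from Cyp26b1 (0.44 ± 0.08, limit 1.06). Other cytochromes, such as Cyp2s1 at 20.9 TPM and 21.4 TPM and Cyp4b1 at 8.79 TPM and 9.20 TPM, stood above both Cyp26 enzymes and are not in that sum. These are ratios of RNA over whole kidneys and give neither enzyme activity nor which cells hold the RNA.

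Crabp1, a small cytoplasmic protein that binds retinoic acid (ENSMUSG00000032291.8, chr9:54764748-54773110, plus strand), was at 14.8 TPM in pup 1 and 11.4 TPM in pup 2, a mean of 13.1 ± 2.43 TPM. Its transcript is short, so this level rested on 309 and 292 counts. Its paralog Crabp2, which carries retinoic acid to the nuclear receptors, was at 16.6 TPM and 16.7 TPM, and the log2 difference of -0.33 ± 0.26 was within the limit of 0.65.

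**Figure D2:**
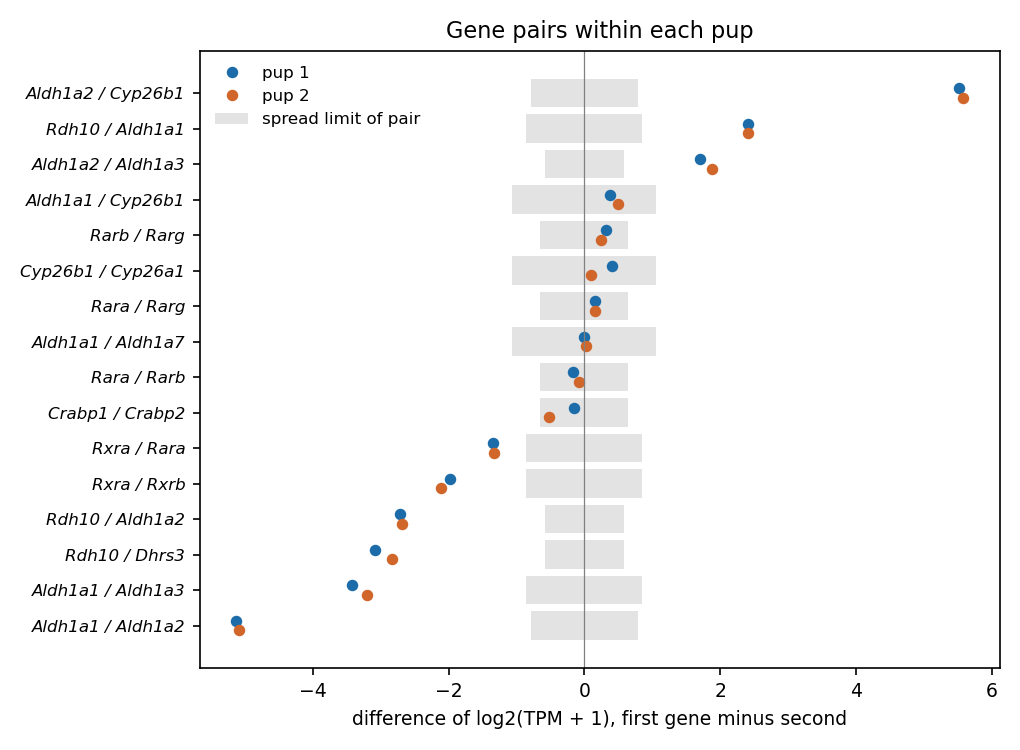
Difference of log2(TPM + 1) between the genes of each of 16 pairs (first minus second) in pup 1 and pup 2, with grey bars for the pair's spread limit on either side of 0. In 9 pairs both pups lie outside the grey bar, from Aldh1a2 over Cyp26b1 at 5.55 to Aldh1a1 over Aldh1a2 at -5.11.

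Among the receptors, the RARs were not separated from each other in level. Rara (ENSMUSG00000037992.12, chr11:98927818-98974942, plus strand) was at 21.7 TPM in pup 1 and 20.5 TPM in pup 2, and its paralog Rarg at 19.3 TPM and 18.2 TPM. Rarb (ENSMUSG00000017491.8, chr14:16430839-16819156, minus strand) was listed at 24.4 TPM and 21.7 TPM, a mean of 23.0 ± 1.90 TPM. None of the 3 RAR pairs differed beyond the spread: Rara over Rarb was -0.12 ± 0.06, Rarb over Rarg 0.28 ± 0.06 and Rara over Rarg 0.16 ± 0.004 on the log2 scale, each against a limit of 0.65. Of the summed TPM of the RARs, Rarb held 37.2% in pup 1 and 35.9% in pup 2, Rara 33.2% and 33.9%, and Rarg 29.6% and 30.2%.

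The Rarb level is uncertain, because its exons lie over those of Top2b, a topoisomerase gene on the opposite strand, at 41.0 TPM in each pup. In GENCODE M21 the exons of Top2b cover 1793 bases of Rarb-201, and 54.1% of the 50-base stretches of Rarb-201 occur in Top2b on the other strand. The deposited tables used a shorter Top2b-201 of 5660 bases in place of 10335, and gave the Rarb count a posterior SD of 0 in both pups. This SD covers only reads shared among the transcripts of those tables. It says nothing of reads from the part of Top2b that they lack. The strand setting is not known. Among 519 genes with at least 300 exon bases over a gene of the opposite strand, 2 had a posterior SD of 0 in pup 1 and none in pup 2, against 86.1% and 85.9% of 5860 protein-coding genes with no overlap. All genes of this comparison, and those they overlap, had at least 100 counts in each pup and transcripts of unchanged length in M21. Rarb-201 (3034 bases as deposited, 3108 in M21) and Top2b-201 changed length, so neither gene is part of it. The median posterior SD of the 519 was 0.613% and 0.564% of the count, below the 2.16% and 2.04% of 112 genes that overlap a gene of their own strand. It was 1.51% and 1.40% for the 144 of the 519 with at least 30% of their exon bases over the other gene. Whether reads of the longer Top2b transcript are part of the Rarb level was not tested.

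Rxra (ENSMUSG00000015846.10, chr2:27676440-27762957, plus strand), the RXR partner on the list, was at 7.91 TPM in pup 1 and 7.52 TPM in pup 2, a mean of 7.72 ± 0.28 TPM. Rxrb stood above it at 34.3 TPM and 35.9 TPM, a log2 difference of -2.05 ± 0.09 against a limit of 0.85. Rxrb therefore made up 79.9% and 81.9% of the summed RXR level, Rxra 18.4% and 17.1%, and Rxrg, at 0.71 TPM and 0.44 TPM, 1.65% and 1.00%. Rxra was also below Rara, at a TPM ratio of 0.365 and 0.367, beyond the spread. The 3 RARs together were 1.52 times the 3 RXRs in pup 1 and 1.38 times in pup 2, and without Rarb the ratio fell below 1, at 0.956 and 0.881. These ratios and the RAR shares use point estimates. The deposited interval of Rarg was wide, from 18.5 to 28.0 TPM in pup 1 and from 17.5 to 25.4 TPM in pup 2. Whether the ratio without Rarb lies below 1 is therefore uncertain.

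Ordered by mean level, the genes ran Aldh1a2, Aldh1a3, Rarb, Rdh10, Rara, Crabp1, Rxra, Aldh1a1, Cyp26b1 and Cyp26a1. This order sets in advance which neighbour is higher, so only the size of each difference is read. Of the 9 neighbouring pairs 3 differed beyond the spread: Aldh1a2 over Aldh1a3, Aldh1a3 over Rarb (0.81 ± 0.06, limit 0.65) and Rara over Crabp1 (0.66 ± 0.19, limit 0.65). The last was lost on FPKM (0.64) and in pup 1 alone (0.52), so it is at the edge. Rxra over Aldh1a1 (1.05 ± 0.03, limit 1.06) missed narrowly. The other neighbours within their limits were Rarb and Rdh10, Rdh10 and Rara, Crabp1 and Rxra, Aldh1a1 and Cyp26b1, and Cyp26b1 and Cyp26a1. Without Rarb, 3 of 8 neighbouring pairs and 9 of 14 fixed pairs were beyond the spread. How many pairs of other genes would pass this rule is not given here, so the counts describe only these genes.

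Between the littermates the 10 genes, like most genes tested, differed little. No gene of the 10 was 2-fold apart in CPM scaled by TMM, where 0.59% of 15074 tested genes were (0.159% lower and 0.431% higher in pup 2). At 1.5-fold the count was again 0, against 2.55% of tested genes (0.683% lower and 1.87% higher in pup 2). With shares this low, a count of 0 in 10 genes is near the share and is not read as a trait of these genes. Of the 10, 6 were lower and 4 higher in pup 2, with 48.2% of all tested genes lower, and their median log2 ratio was -0.01 against 0.01 for all. By deposited TPM, the scale of the levels given above, 9 of the 10 were lower in pup 2, since Aldh1a1, Aldh1a2 and Rdh10 had a slightly lower TPM there but a higher scaled CPM. The median TPM of all detected genes was also lower there, at 15.5 TPM against 16.3 TPM in pup 1. The share of all genes with a lower TPM is not given here, so the 9 is not read as a trait of these genes. Cyp26a1 had the largest ratio, 0.36 on the log2 scale, but its exact binomial counting interval ran from -0.06 to 0.83.

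**Figure D3:**
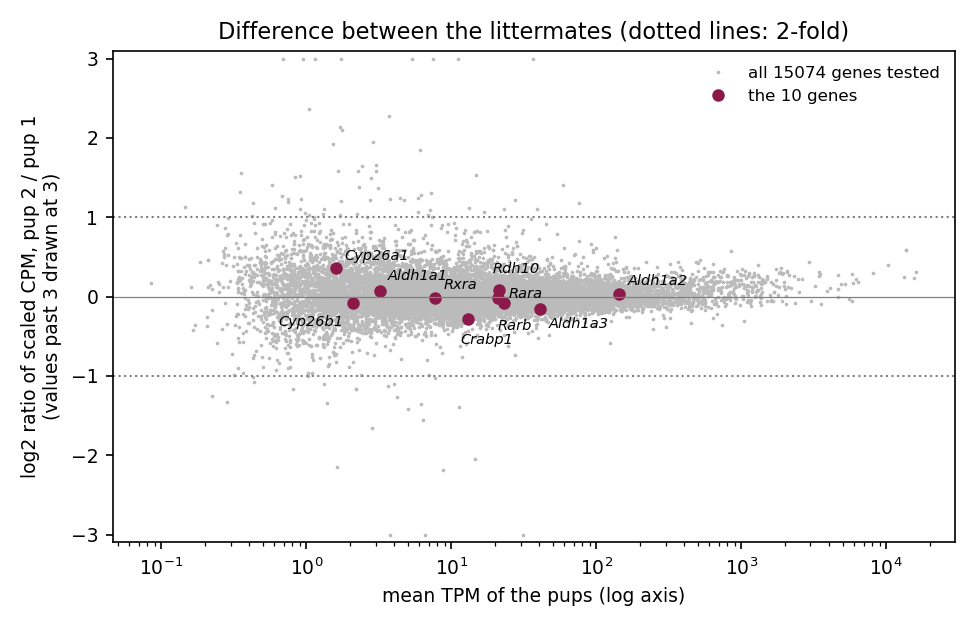
Log2 ratio of scaled CPM, pup 2 over pup 1, against mean TPM (log axis) for the 15074 genes tested (grey) and the 10 genes (dark red), with dotted lines at 2-fold. The 10 genes lie between -0.28 (Crabp1) and 0.36 (Cyp26a1), inside the lines.

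The deposited intervals of the pups did not overlap for 3 of the 10 genes, near the share of 27.5% over all detected genes. Aldh1a3 had 42.6 to 45.6 TPM in pup 1 and 36.0 to 38.5 TPM in pup 2, a log2 ratio of -0.15 with a counting interval of -0.22 to -0.09. Crabp1 had 12.9 to 16.2 TPM and 9.95 to 12.5 TPM, a log2 ratio of -0.28 with an interval of -0.52 to -0.05. The third was Rarb, at 22.9 to 24.9 TPM and 20.5 to 22.2 TPM, whose log2 ratio of -0.08 had a counting interval that included 0, from -0.16 to 0.01. All 3 had the lower value in pup 2, where the median TPM of all detected genes was also lower (15.5 against 16.3 TPM). How many of all genes without overlap were lower in pup 2 is not given here. The 9 stroma markers summed to 1558 TPM in pup 1 and 1391 TPM in pup 2, but by scaled CPM 4 of them were lower and 5 higher in pup 2, with a median log2 ratio of 0.04. The sum was led by Col3a1 at 560 TPM and 507 TPM and Col1a1 at 364 TPM and 282 TPM, and the 15 kidney epithelium markers summed to 1644 TPM and 1621 TPM. The part of cell composition in these differences was not tested.

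The leading transcript was the same in both pups for all 10 genes. For the 5 of them with more than 1 transcript in the tables this was 5 of 5, where 92.6% of 10057 detected genes with several transcripts kept theirs. Rara had transcripts with 2 coding starts, known to give receptors that differ at their amino end. Transcripts starting translation at chr11:98950618 held 62.9% of Rara TPM in pup 1 and 62.3% in pup 2, and the transcript Rara-202, which starts at chr11:98960965, held 37.1% and 36.6%. The split among transcripts of the first coding start was less steady, with Rara-204 at 49.2% and 41.6% and Rara-203 at 12.9% and 20.7%.

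For Aldh1a3, the longest coding transcript (ENSMUST00000015278.9) held 88.0% in each pup, and Aldh1a3-203, which has a shorter coding part, 11.4% and 12.04%. The coding transcript of Rdh10 (ENSMUST00000027053.7) held 95.4% and 96.9% of its TPM, the rest being a transcript with a retained intron. All of the Rxra level in pup 1 and 97.4% in pup 2 was given to Rxra-201. Cyp26b1-202 held 100% of Cyp26b1 in both pups. Of Rarb, 1 transcript was in the tables and 7 are in M21, so the use of its other starts could not be read from them.

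**Figure D4:**
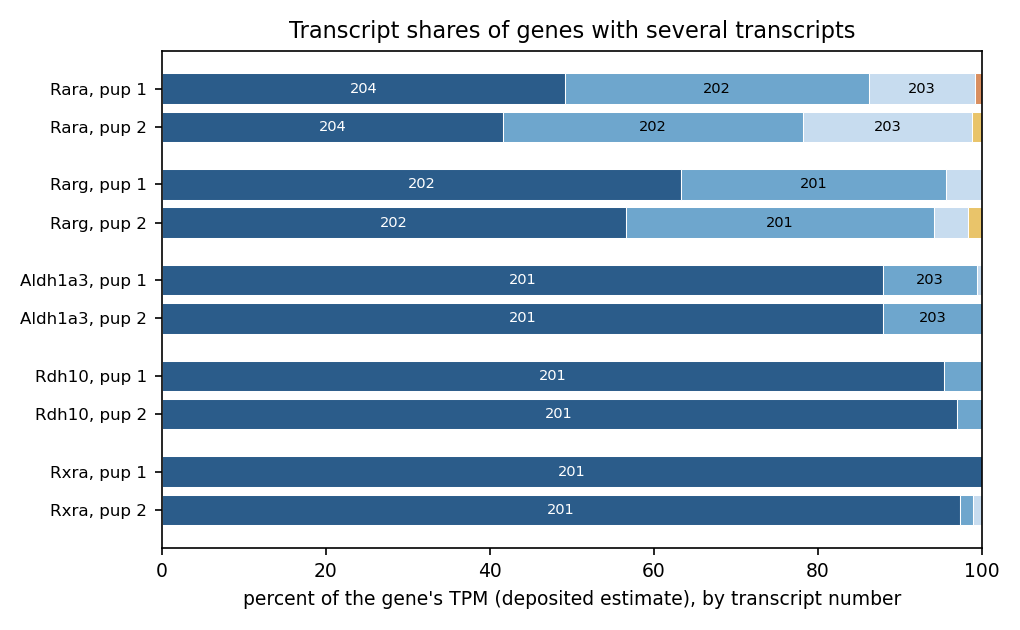
Percent of the gene's TPM given to each transcript in each pup by the deposited estimates, for 4 of the 10 genes and Rarg, with the transcript number inside the bar. Rara-202 takes 37.1% and 36.6% of Rara, whereas Aldh1a3, Rdh10 and Rxra are each led by 1 transcript.

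The rest of the pathway was read from 7 lists of 75 other genes, of which 74 had a row. Of these 59 reached 1 TPM in both pups and 15 did not. Over all genes, 61.5% of protein-coding genes and 34.4% of named genes reached that level. The lists were chosen with earlier results of these data known. Neither this count nor the counts per list below are therefore read as a trait of these genes. By scaled CPM, 0 of the 58 tested were 2-fold apart between pups, against 0.59% of all genes tested. At 1.5-fold 1 was, against 2.55% of all genes tested. It was Hic1, a transcriptional repressor, with a log2 ratio of scaled CPM of 0.61, pup 2 over pup 1. Its TPM was 15.2 in pup 1 and 21.4 in pup 2, a smaller ratio of 1.41. Both counts were near the shares of all genes tested and are not read as a trait of the pathway.

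For uptake, transport and storage 8 of 9 genes were detected, with a median over the list of 7.74 TPM in pup 1 and 9.17 TPM in pup 2. The highest was Ttr, which carries the retinol transporter Rbp4 in blood, at 69.2 TPM and 76.2 TPM, and Rbp4 itself was at 7.74 TPM and 9.17 TPM. Ttr is also a liver marker: 7 of 8 liver markers reached 1 TPM, summing to 217 TPM in pup 1 and 205 TPM in pup 2, with Afp at 105 TPM and 95.3 TPM, Alb at 5.65 TPM and 2.42 TPM, and Hamp at 0.00 TPM and 0.09 TPM. Their part in the Ttr level was not tested. Dgat1, which can esterify retinol, was at 35.5 TPM and 36.4 TPM and Lrp2, the receptor that recovers filtered Rbp4, at 30.8 TPM and 29.8 TPM. Stra6, the Rbp4 receptor, was at 10.9 TPM and 9.73 TPM, whereas Lrat, the main retinol-esterifying enzyme, was listed at 0.09 TPM and 0.07 TPM.

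Among retinol and retinal interconverting enzymes 12 of 19 were detected, and the list had its median at 12.1 TPM and 10.5 TPM. The highest were Adh5 at 227 TPM and 218 TPM, Dhrs3, then Adh1 at 122 TPM and 129 TPM and Dhrs4 at 87.8 TPM and 77.7 TPM, and Rdh9 was listed at 0.00 TPM in both pups. Of 5 other breakdown and binding genes 4 were detected (list median 16.6 TPM and 16.7 TPM), led by Fabp5, a fatty acid binding protein that also takes up retinoic acid, at 139 TPM and 150 TPM. The cytochromes Cyp2s1 and Cyp4b1, given above, were the other detected genes beside Crabp2.

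Of 4 other receptors 3 were detected, the lowest of these being Ppard at 1.52 TPM and 1.48 TPM. Of 14 coregulators 13 were detected (list median 11.6 TPM and 10.9 TPM), led by Ncor1, a corepressor of unliganded receptors, at 107 TPM and 98.5 TPM, and the histone deacetylase Hdac3 at 81.3 TPM and 71.2 TPM. Nrip1 was at 27.9 TPM and 24.3 TPM, Kmt2e at 26.0 TPM and 23.1 TPM, and Prame, a repressor of RAR signalling in tumours, was listed at 0.00 TPM in both.

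Among 21 genes known to respond to retinoic acid in some tissue 17 were detected, and the median gene of the list stood at 10.6 TPM in pup 1 and 8.16 TPM in pup 2. The 4 highest were Ecm1, an extracellular matrix protein of the renal stroma, at 142 TPM and 141 TPM, the nuclear receptor Nr2f2 at 102 TPM and 103 TPM, Upk3a, a protein of the urothelial surface, at 60.2 TPM and 82.1 TPM, and Rarres2 at 51.5 TPM and 62.0 TPM. Stra8, the meiotic entry gene of germ cells, was listed at 0.00 TPM in both pups. Ret was at 5.65 TPM in pup 1 and 6.08 TPM in pup 2. The list gives levels only, and nothing in these data varies retinoic acid.

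**Figure D5:**
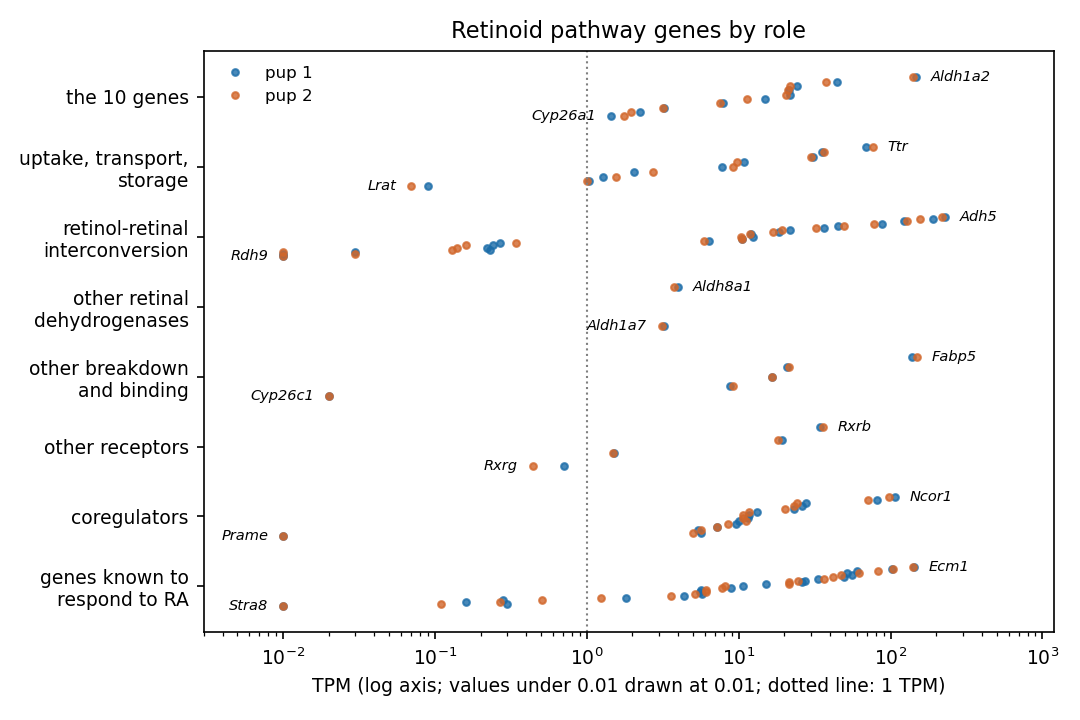
TPM (log axis) of the 10 genes and of the genes on 7 other pathway lists in pup 1 and pup 2, with the lowest and highest gene of each list named and a dotted line at 1 TPM. Detected genes reach from about 1 TPM to Adh5 at 227 and 218 TPM, and the undetected ones lie left of the line.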

How the data were processed

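Total RNA above 200 bases from the kidneys of 2 pups was sequenced from 10 ng of starting RNA, per the labels. The authors deposited a gene and a transcript table for each library with expected counts, TPM, FPKM and the percent of each gene's TPM in each transcript, on mm10 with GENCODE M4, per the text deposited with them. The column names are those of RSEM. The sources used here give no aligner, version or strand setting. Gene names and coordinates were matched by identifier, without version, to GENCODE M21 on the same assembly.

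The 10 genes and all lists were chosen with earlier results of these data known. Named genes were the 10, their paralogs, every gene of the 16 fixed pairs, and of each other list up to 4 highest and the lowest; Ret, Hic1, Rbp4, Bco1, Top2b and the markers printed outside that rule were named after their values were seen. Detection was 1 TPM in both pups. Levels were compared as log2(TPM + 1) with a pseudocount of 1. Rounded expected counts were turned into CPM scaled with TMM (edgeR 4.0.16), with 0.1 added. These CPM values were compared between pups where either pup had 50 or more expected counts. DESeq2 1.42.0 gave alternative size factors. Counting intervals are exact 95% binomial and cover counting error only. The labels name separate pups, of 1 litter. The strand check and the counts without Rarb were chosen after seeing the data. Of the genes first listed, 1 is not reported here, and it was left out of the lists, pairs and counts. Scripts were tested on simulated data.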

Additional observations from a re-analysis of the deposited data

How the results depend on the processing

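No paired analysis was possible because the study has 1 group. With AGGTCA as the only repeat unit the promoters with a match went from 2 to 0, the only count to move by over 1.5 times under the settings tried. Neighbouring pairs beyond the spread went from 3 to 4 with posterior mean TPM and with limits from genes at 0.1 TPM or more. At 5 TPM, 7 of the 10 genes and 50 pathway genes were detected. Leaving out either pup gave 10 to 10 genes detected and 59 to 59 pathway genes, counts that could not fall because detection needs both pups. It gave 3 to 3 neighbouring pairs and 9 to 9 fixed pairs beyond the spread, where the rule of the same sign no longer applies. Without replicate 2 the neighbours were not the same 3: Rara over Crabp1 (0.52) was lost and Rxra over Aldh1a1 (1.07) was gained. Signs turned only for near-equal levels: Rdh10 over Rara was -0.0027 with posterior mean TPM, -0.0096 without replicate 2 and 0.0476 without replicate 1, Aldh1a1 over Aldh1a7 -0.0034 without replicate 2 and 0.0244 without replicate 1, and Rara over Rarg -0.0187 with posterior mean TPM. Rxra over Aldh1a1 passed its limit with posterior mean TPM (1.08), with limits from genes at 0.1 TPM or more (1.05), on FPKM (0.99) and without replicate 2 (1.07). Rescaling TPM without mitochondrial and ribosomal RNA multiplied levels by 1.11 in pup 1 and 1.13 in pup 2. Depth limits Cyp26a1 most, at 72 and 108 counts. Between-pup ratios have no value with a pup left out.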

Other observations

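Rarg, like Rara, was split between coding starts. Rarg-202, whose translation starts at chr15:102246210, held 63.4% of Rarg TPM in pup 1 and 56.6% in pup 2, and the transcripts that start at chr15:102252602 held 32.3% and 39.3%. Dhrs3, the retinal reductase that stood above Rdh10, was spread over several transcripts. The leading coding transcript (ENSMUST00000171001.3) held 35.0% in each pup, another (ENSMUST00000154208.3) 25.1% and 27.5%, and 25.7% and 27.0% was given to ENSMUST00000084184.6, which the annotation lists as a target of nonsense-mediated decay.

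The deposited uncertainty of counts differed with overlap of a gene on the opposite strand. The posterior SD was a median 0.613% of the count in pup 1 and 0.564% in pup 2 for 519 genes with at least 300 exon bases over such a gene. The genes compared were chosen by the counts and transcript lengths given above for Rarb, which is not among them. The median was 1.51% in pup 1 and 1.40% in pup 2 for the 144 of the 519 with at least 30% of their exon bases over the other gene. For 112 genes that overlap a gene of their own strand it was 2.16% and 2.04%. The median was 0.00% for the 5860 protein-coding genes with no overlap.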
